A study of Mus musculus with 4 samples.

Results

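Isolated shared regions of convergent transcription were described in mouse B cells. Convergent transcription means that RNA polymerases copy both strands of the same stretch of DNA, towards each other. Regions were taken from lists made for 4 global run-on sequencing (GRO-seq) libraries, a method that maps engaged polymerases by strand. A region was kept when it was called in all 4 libraries on chromosomes 1 to 19, and counted as isolated when its nearest kept neighbour lay more than 300 kb away. This gave 543 isolated regions among 4856 kept regions (11.2%), out of 20175 merged regions in all. Calls and positions chose the members, so presence in every library and the distances are descriptions. The rule did not read signal values or the changes between the groups. Being called in all 4 libraries can still depend on signal, and called ends enter the merging and the gaps. Signal and called length are therefore not fully independent of the selection.

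All libraries came from nuclei of splenic B cells of Fucci-EGFP+ C57BL/6 mice, activated in culture with LPS, IL4 and Rp105. The Fucci-EGFP reporter follows the cell cycle through fluorescence. In 2 libraries the cells were unsynchronized. In the other 2, nocodazole at 100 ng/ml was given 42 h after isolation for 6 h, EGFP+ cells were sorted and returned to culture for 1.5 h, and early G1 cells were then sorted. The deposited name of early G1 replicate 1 says 1 h of release. Nocodazole, sorting and release go with the early G1 libraries, so these steps and the cell cycle phase cannot be told apart. The labels do not say whether replicates were separate mice or cultures, and p-values therefore measure only how far these libraries differ, and that may be technical.

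Opposing polymerases can collide or stall. Convergent transcription is best known in B cells from enhancers inside genes, where sense and antisense transcripts overlap and where activation-induced cytidine deaminase (AID), the enzyme of antibody class switching and somatic hypermutation, can act outside the antibody genes. In nascent RNA data it also occurs near promoters and enhancers. The region lists carry mm9 positions and no gene names. Gene identities and DNA sequences of the regions were not analysed here, and regions are named by their mm9 position, counted from 1.

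The authors' signal of a region, a geometric mean of the strands, behaved as a read count divided by region length and by a constant of each library. The inferred library sizes were 14720000 and 13480000 reads in unsynchronized cells and 8170000 and 9520000 reads in early G1 cells, so inferred depth differed with the group. The median isolated region was covered by 231 and 266 reads without synchronization, against 206 and 235 in early G1 cells. Here a read count is the recovered geometric mean of both strands. Counting error alone was at least 4.34% to 4.93% of the signal of such a region. In 10 of the 543 isolated regions at least 1 library held fewer than 10 reads. Reads may include duplicates of 1 molecule, which these errors leave out.

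The first question was where the isolated regions lie and how far apart they are. Their distance to the nearer kept neighbour had a median of 568 kb, with quartiles of 398 and 1005 kb, against a median of 38.1 kb over all kept regions. The distance was 300 to 500 kb for 230 isolated regions, 500 kb to 1 Mb for 175 and over 1 Mb for 138. It exceeded 2 Mb for 43 regions and 3 Mb for 11. Only 9 were the first or last kept region of their chromosome and were judged by a single neighbour.

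The 6 most isolated regions were chosen by distance. At the head stood chr14:87815752-87817476, a region of 1725 bp with kept neighbours 7878 kb and 12792 kb away. Its signal was 28.9 and 73.4 in unsynchronized cells, against 37.4 and 50.6 in early G1 cells. The unsynchronized libraries enclosed both early G1 libraries. The region chr8:54597065-54598477 lay 5368 kb from its nearer neighbour, with signals of 8.45 and 27.3 against 18.4 and 18.7. Here too the groups overlapped.

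The region chr16:64873277-64873788, 5272 kb from its nearer neighbour, had signals of 58.3 and 90.8 against 85.4 and 78.9. It was among the most sharply placed of all, with called lengths of 499, 512, 504 and 502 bp and 97.5% of its span called in all 4 libraries. On chromosome 8, chr8:42324880-42325602 lay 5074 kb from the nearest kept region. Its signals were 17.9 and 31.1 against 36.0 and 98.4, but early G1 replicate 2 held a call of only 186 bp, against 660 to 718 bp in the other libraries.

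The region chr12:41750712-41754242 was 4642 kb from its nearer neighbour and had the most even signal of the 6, at 24.7 and 24.6 against 21.1 and 23.9. Its called length was 3519 and 2544 bp in unsynchronized cells and 2057 and 1006 bp in early G1 cells. The last of the 6, chr7:66483382-66483972, lay 4598 kb from its neighbour, with signals of 75.6 and 60.4 against 115 and 118. Both early G1 libraries exceeded both unsynchronized libraries there. The log2 changes of these 6 regions ran from -0.13 to 1.30, and none passed the test introduced below (limma adjusted p from 0.27 to 0.95).

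The number of isolated regions varied less between chromosomes than the number of kept regions. Between the outermost kept regions of a chromosome, there were 1.45 (chromosome 18) to 3.71 (chromosome 19) kept regions per Mb, but 0.175 (chromosome 7) to 0.332 (chromosome 9) isolated regions per Mb. The rule itself leaves fewer isolated regions where kept regions are dense, and the isolated share was lowest on the densest chromosomes, at 4.83% (21 of 435) on chromosome 11 and 6.05% (13 of 215) on chromosome 19. It was highest on chromosome 18, at 19.7% (25 of 127). Chromosomes 9 and 10 held 40 isolated regions each, nearly as many as the 41 on the longer chromosomes 1 and 2.

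**Figure D1:**
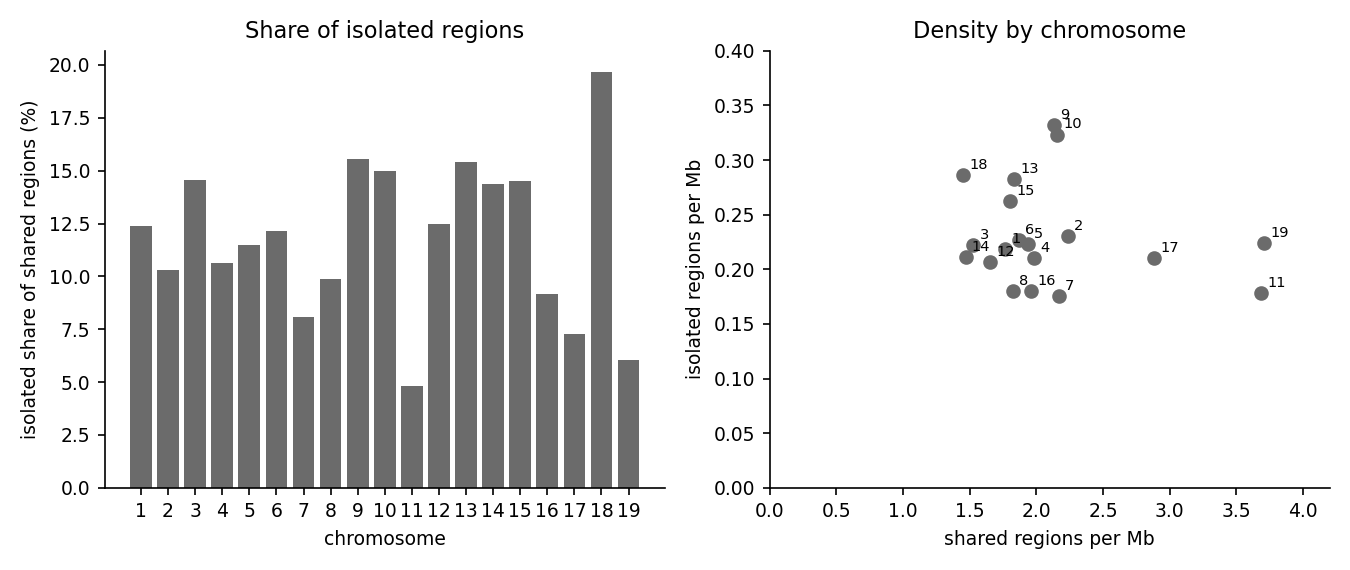
Left, the percentage of kept regions that were isolated on each of chromosomes 1 to 19. Right, isolated regions per Mb against kept regions per Mb, with 1 point per chromosome; the chromosomes with the most kept regions per Mb, 11 and 19, have isolated densities (0.178 and 0.224 per Mb) within the range of the others and the lowest isolated shares on the left.

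Runs of isolated regions along a chromosome are a description only, since adjacent kept regions share a gap and positions chose the members. The isolated regions formed 328 uninterrupted runs, of which 202 held a single region, 71 held 2 and 55 held 3 or more. These 55 runs took in 199 of the 543 regions. The longest run, singled out after the data were seen, held 8 consecutive isolated regions over 10.2 Mb of chromosome 10. The next held 7 over 14.3 Mb of chromosome 15.

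Members of a run differed in direction, as examples chosen after their values were seen show. In the chromosome 10 run, chr10:20796977-20797514 had signals of 50.95 and 63.6 against 30.1 and 26.7, and thus lower signal per length in early G1 cells. Its calls were longer there, at 113 and 158 against 472 and 485 bp, and its reads of 85 and 135 against 116 and 123 overlapped. The neighbouring chr10:23879059-23880452 had signals of 18.6 and 9.83 against 20.6 and 20.9, with both early G1 libraries above. At chr10:25085477-25086987 the signals of 10.5 and 11.3 against 10.7 and 10.7 overlapped. In the chromosome 15 run, chr15:38229076-38230526 had 10.7 and 7.48 against 29.5 and 31.1, whereas chr15:50720069-50721739 had 9.63 and 16.8 against 8.74 and 7.52. The former lies higher and the latter lower in early G1 cells, and neither passed the test (limma adjusted p = 0.14 and 0.58).

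The distance of 300 kb cut through a continuous range. Just inside were the neighbours chr15:38229076-38230526 and chr15:38531388-38532211, 300.9 kb from each other, and chr9:40262811-40263630 at 301 kb. Just outside were chr12:8647574-8648082 at 299.3 kb, chr6:85087320-85087809 at 298.8 kb and chr6:34816862-34829232 at 298.3 kb.

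The second question was whether isolation held for all calls or only for those shared by the 4 libraries. Only 71 of the 543 regions (13.1%) had no other call of any library within 300 kb. The others had between 1 and 20 merged regions nearby that 1 to 3 libraries held, and the median over all 543 was 3. Together there were 2256 such neighbours, of which 1192 (52.8%) were called in a single library, 582 in 2 and 482 in 3. Where called, they had lower median signals than the isolated regions, at 7.30 and 10.3 in unsynchronized cells, against 12.5 and 15.8 in early G1 cells. The corresponding medians of the isolated regions were 16.7 and 21.6 against 26.6 and 26.7. Each neighbour median covers only those called in that library (1091 and 887 against 1051 and 773). By the rule no neighbour was called in all 4 libraries, so this difference is not a result about isolation.

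In its own list, a library had a mean of 2.11 and 1.71 other calls around an isolated region in unsynchronized cells and of 2.05 and 1.51 in early G1 cells. This is 1.91 ± 0.284 against 1.78 ± 0.383 (SD, n = 2), and the groups overlapped. The difference of -0.13 was smaller than the spread between replicates (exact two-sided permutation p = 0.667, where 0.333 is the smallest possible with 2 against 2). It was 0.070 without unsynchronized replicate 1 and 0.14 without early G1 replicate 2. Isolated regions without any other call in their own library numbered 150 and 172 in unsynchronized cells, against 162 and 186 in early G1 cells. Of the neighbours, 166 were called in both unsynchronized libraries and neither early G1 library, and 112 the reverse. The same was not counted over all merged regions, so these numbers are no result about isolated regions. Absence from a list is not evidence that polymerases were absent.

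**Figure D2:**
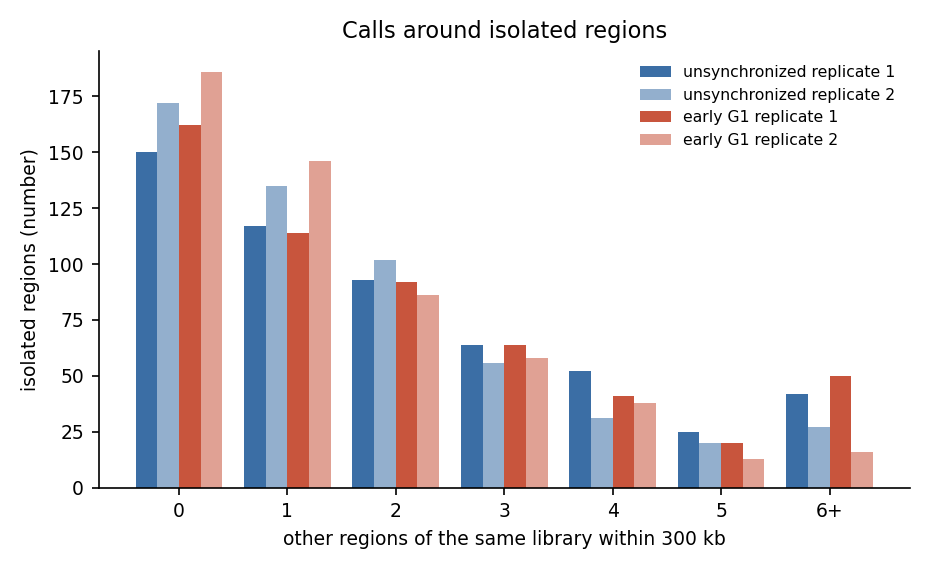
Number of isolated regions (vertical axis) by the number of other regions of the same library within 300 kb (horizontal axis, 6 or more pooled), with 1 bar per library and no error bars. The replicates of a group differ from each other as much as the groups do, with 150 and 172 against 162 and 186 regions at 0.

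Of the 71 regions without any other call, the 3 with the largest distance are described here. One is chr7:66483382-66483972, described above. The second, chr4:66488700-66489736, had kept neighbours 2985 kb and 16471 kb away and signals of 15.0 and 25.1 against 25.3 and 32.0. The third, chr3:154259597-154260150, lay 2118 kb from its nearer neighbour, with signals of 35.3 and 38.4 against 58.9 and 62.8. In each of the 3, both early G1 libraries lay above both unsynchronized libraries, but none passed the test (limma adjusted p from 0.38 to 0.57).

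The third question was how strong and how long the isolated regions were beside the other 4313 kept regions. Their median signals lay close together. In log2(signal + 1), the median of the isolated regions minus that of the others was -0.025 and -0.070 in unsynchronized cells, against -0.034 and 0.0075 in early G1 cells. This is -0.048 ± 0.032 against -0.013 ± 0.030 (SD, n = 2), and the difference between the groups of 0.034 was about as large as the spread between replicates (exact two-sided permutation p = 0.667). Isolated regions were shorter in all 4 libraries. Their median called length was 912 and 883 bp in unsynchronized cells and 976 and 862 bp in early G1 cells, against 1238 and 1108 bp and 1319 and 1094 bp for the other kept regions. This length gap is given without a test, because a long region also leaves a smaller gap to its neighbours. Of the isolated regions, 37.8% spanned less than 1 kb after merging, against 25.7% of the others, and 7.0% against 13.7% spanned more than 5 kb.

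**Figure D3:**
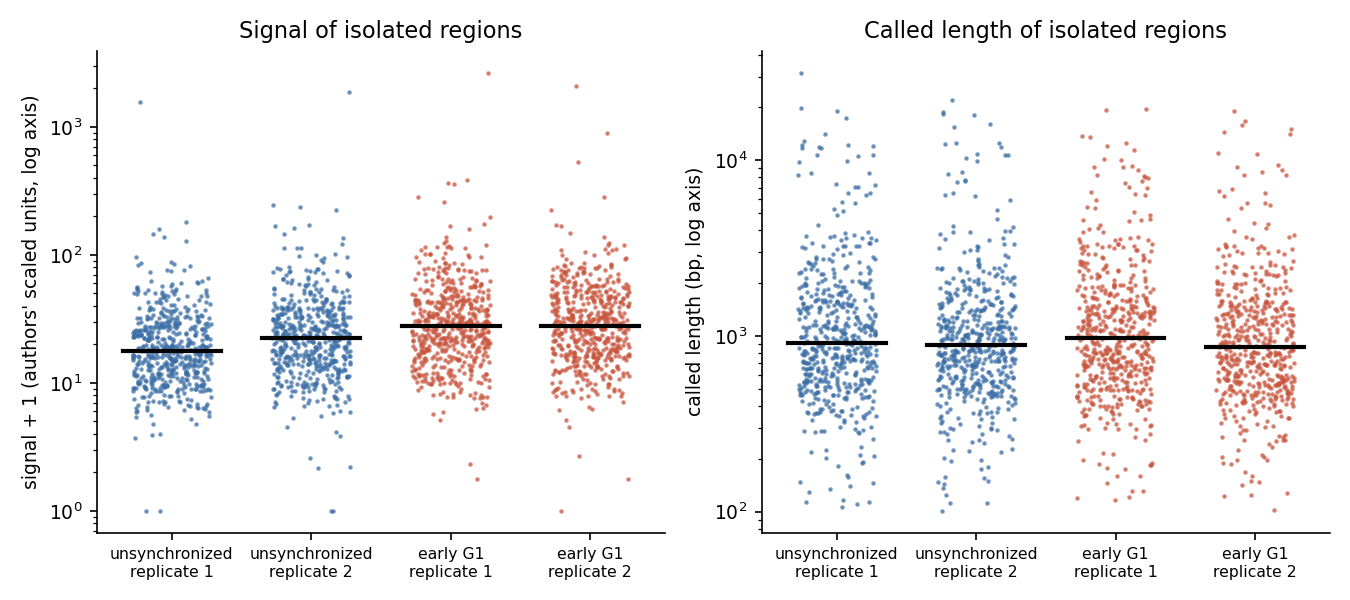
Signal plus 1 in the authors' scaled units (left, log axis) and called length in bp (right, log axis) of the 543 isolated regions in each library, with 1 point per region and a bar at the median. Median signal is 16.7 and 21.6 without synchronization, against 26.6 and 26.7 in early G1, while median called lengths lie between 862 and 976 bp.

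The isolated region of highest signal was chr7:105963891-105964382, a compact region of 492 bp. It had a signal of 1555 and 1867 in unsynchronized cells, against 2644 and 2082 in early G1 cells, on 8724 to 11701 reads. Its called lengths of 440 to 489 bp hardly varied. Both early G1 libraries lay above, by 0.46 in log2 (SE 0.49, limma adjusted p = 0.65), which is close to the median change of all isolated regions. The next in signal, chr2:73705926-73706567, had 179 and 223 against 359 and 888. Its groups did not overlap either, though the early G1 replicates differed widely and the call of unsynchronized replicate 2 spanned 641 bp against 289 to 311 bp in the others.

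At chr13:81022663-81024824 the signal was 126 and 120 in unsynchronized cells, against 381 and 528 in early G1 cells, a ratio of group means of 3.70. The 4 calls spanned 2122 to 2159 bp, so that 98.1% of the region was called in every library. The log2 change of 1.86 (SE 0.42) missed the threshold (limma adjusted p = 0.089), and it passed once the lowest 25% of regions by signal was left out (0.023). The region chr12:92826907-92828494 was as sharply placed, with calls of 1560 to 1588 bp, and had signals of 159 and 235 against 281 and 279. Its groups were apart by less than the replicate spread of the unsynchronized libraries.

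The remaining members of the 6 were chr3:30500164-30501491, at 80.1 and 145 against 355 and 165, and chr2:146838406-146838775, at 145 and 162 against 196 and 169. Early G1 libraries were the higher ones in both. The log2 changes of 1.16 and 0.25 did not pass (limma adjusted p = 0.295 and 0.78).

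Long isolated regions were few. Isolated regions with over 10 kb called in a library, summed over pieces, numbered 15 and 14 in unsynchronized cells, against 9 and 8 in early G1 cells. This is 14.5 ± 0.707 against 8.50 ± 0.707 (SD, n = 2). Among the other kept regions there were 161 and 138 such regions against 122 and 133. The groups did not overlap in either set, and for the isolated regions the p of 0.333 is the smallest this exact two-sided permutation test can give. Inferred library size was lower in both early G1 libraries as well, and its part in this count was not tested.

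The longest isolated region, chr10:29049901-29081898, spanned 31998 bp. It was called over 31559 and 22013 bp in unsynchronized but over 10078 and 8253 bp in early G1 cells. These lengths came in 1 and 2 pieces in unsynchronized cells, against 2 and 4 in early G1 cells. No base of it was called in all 4 libraries. Its signal per length was 8.86 and 12.8 against 10.7 and 18.8, so the groups overlapped in level while the called lengths did not overlap.

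The region chr16:44724622-44746525 was called over 19852, 18803 and 15952 bp in unsynchronized replicates 1 and 2 and early G1 replicate 2, but over 722 bp in early G1 replicate 1. Its signals of 13.6 and 18.3 against 46.2 and 18.9 were highest in the library with the shortest call. The other 2 of the 4 longest regions were called over more than 10 kb in every library. At chr8:63374259-63396575 the calls spanned 17530 and 15406 against 19699 and 16798 bp, with signals of 18.6 and 24.2 against 15.6 and 30.5. At chr2:94245833-94265836 they spanned 12106 and 18377 against 19463 and 19015 bp, with signals of 14.5 and 25.2 against 27.9 and 36.1. The groups overlapped in signal in the former and were apart in the latter.

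The 4 lists agreed only in part on where an isolated region begins and ends. The part of the span called in all 4 libraries had a median of 51.8%, with quartiles of 30.3% and 73.9%, and the other kept regions had a median of 48.7%. In 37 isolated regions it reached 90% or more. In 20 regions (3.68%) no base was called in all 4 libraries, because calls that overlap in a chain were merged into 1 region. The longest call was a median 1.66 times the shortest, and in 232 regions (42.7%) all calls lay within 1.5 times of each other. Over the 543 regions, log2 signals of pairs of libraries had Pearson correlations of 0.78 within both groups and of 0.64 to 0.78 across them, a description only, since regions share library and calling.

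The main comparison asked whether convergent transcription at isolated regions differed between early G1 and unsynchronized cells. With the authors' scaling, the signal of most isolated regions lay higher in early G1 cells. The median log2 change of signal + 1 was 0.48 (1.40-fold), with quartiles of 0.13 and 0.83, and 81.4% of the isolated regions were above 0. Over all 4972 regions called in the 4 libraries, the median was 0.41 and 78.0% were above 0. Both early G1 libraries exceeded both unsynchronized libraries in 266 of the 543 isolated regions (49%), and both lay below them in 26 (4.79%). The same held for 43.9% and 4.67% of all shared regions. The groups overlapped in the other 251.

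This shift depended on how libraries are scaled. When each library was divided by its median signal, the median log2 change of the isolated regions was 0.037 and that of all shared regions was -0.026. At an unadjusted p under 0.05 in limma, 31 isolated regions were then higher (5.71%, background 4.26%) and 35 lower (6.45%, background 5.73%). The groups were apart upward in 127 isolated regions (23.4%, background 19.5%) and downward in 111 (20.4%, background 22.9%). As unscaled reads, the median log2 change was -0.15 for the isolated and -0.25 for all shared regions. Dividing by the median largely removes a general shift by construction, so it cannot tell a general change from a difference in scaling. The changes of the regions that passed are given below also relative to the median of 0.41.

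After limma's moderated test across all 4972 shared regions, 1 isolated region was higher in early G1 cells (0.184%) and 2 were lower (0.368%) at an adjusted p under 0.05. Over all shared regions, 0.302% passed as higher and 0.0402% as lower, so both regions of the series that passed as lower lie among the isolated regions. At an unadjusted p under 0.05, 101 isolated regions were higher (18.6%, background 13.9%) and 7 lower (1.29%, background 0.945%). The counts of 1 and 2 were both 0 after median scaling, with the replicate block and with merging within 1 kb. Each library left out in turn moved at least 1 of these counts. Shares of all shared regions passing under these other settings were not counted.

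**Figure D4:**
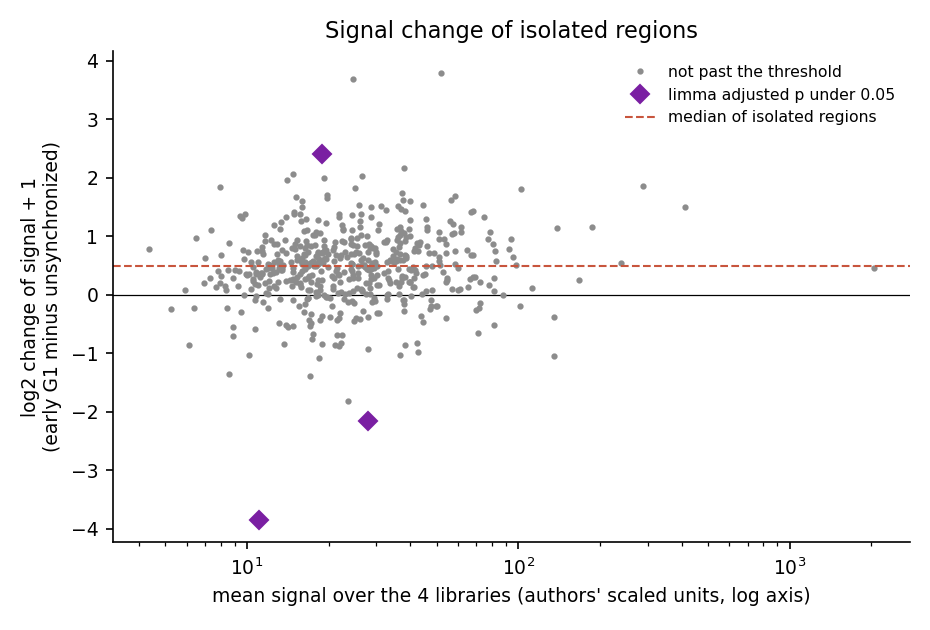
Log2 change of signal + 1 (early G1 minus unsynchronized, vertical axis) against mean signal over the 4 libraries (log axis) for the 543 isolated regions. Diamonds mark the 3 regions past the limma threshold, at 2.40, -2.16 and -3.85; the dashed line at 0.48 is the median, and most points lie above 0.

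The region that rose was chr3:61166792-61168454, between kept neighbours 846 kb and 4027 kb away. Its signal was 6.28 and 4.48 in unsynchronized cells, against 32.4 and 32.2 in early G1 cells, on 135 and 79 against 346 and 465 reads. The replicates of each group were close and the groups far apart, by 2.40 in log2 (SE 0.46, limma adjusted p = 0.043), which is 1.98 above the median of all shared regions. Calls were of like length, at 1466 and 1309 against 1305 and 1514 bp, and a single other call, of unsynchronized replicate 2, lay within 300 kb. The direction held under each setting that kept the region in the fit. The call was lost without unsynchronized replicate 1 (limma adjusted p = 0.088) or 2 (0.33).

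The region chr4:118098101-118109040, between neighbours 509 kb and 1177 kb away, passed as lower. It had signals of 16.9 and 26.1 on 10603 and 10343 bp in unsynchronized cells, and of 1.32 and 0 on 185 and 123 bp in early G1 cells. The early G1 read counts, geometric means of both strands, were 2 and 0, and a strand without reads is enough for a 0. Little or no convergent signal was thus measured on these short calls, and no base of the region was called in all 4 libraries. The fitted log2 change of -3.85 (SE 0.76, limma adjusted p = 0.045) therefore compares different stretches, includes a library at 0 and gives no size or bound of a decrease. With a pseudocount of 0.1 in place of 1 it was -5.81 (limma adjusted p = 0.23). Without unsynchronized replicate 1 or 2 the call was lost (limma adjusted p = 0.42 and 0.39).

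The other region that passed as lower was chr14:66424650-66426302, with kept neighbours 447 kb and 392 kb away. Its signal was 40.5 and 51.7 in unsynchronized cells, against 11.9 and 7.56 in early G1 cells, a difference of -2.16 in log2 (SE 0.43, limma adjusted p = 0.0496), or -2.57 relative to the median. Called length differed the opposite way, with 325 and 368 against 871 and 1653 bp. Reads were 194 and 256 against 84 and 119, and as unscaled reads its log2 change was -1.15 (limma adjusted p = 0.51). As signal times called length, which takes in the longer early G1 calls, it was -0.48 (limma adjusted p = 0.68). The call was lost without unsynchronized replicate 1 or 2 (limma adjusted p = 0.16 and 0.33) and without early G1 replicate 2 (0.059).

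The next largest increases with groups apart did not pass. At chr9:13553587-13554315 the signal was 0 and 34.6 in unsynchronized cells, against 116 and 56.8 in early G1 cells. Unsynchronized replicate 1 had a read count of 0 on 183 bp there, which, as a geometric mean, needs only a strand without reads. The log2 change of 3.79 (SE 1.05, limma adjusted p = 0.16) rests on that library, being 1.21 without it. A single library also set the change at chr9:113615444-113617395, where the signals were 11.02 and 0 against 37.7 and 50.03. Unsynchronized replicate 2 likewise had a read count of 0 on 144 bp, while the other 3 calls spanned 1889 to 1952 bp. The log2 change of 3.68 (limma adjusted p = 0.083) was 1.89 without that library.

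At chr6:140567771-140576823, a region 2128 kb from its nearer kept neighbour, the signal was 19.6 and 8.52 against 55.6 and 68.3. Called lengths varied within both groups, from 2422 to 7031 bp and from 2066 to 8817 bp. Its log2 change of 2.16 (SE 0.46) missed the threshold (limma adjusted p = 0.066), and it passed without either early G1 library (0.019 and 0.031). The limma adjusted p was 0.42 after median scaling, and no base of the region was called in all 4 libraries. The region chr18:21833593-21834360 had signals of 5.22 and 4.91 against 28.3 and 20.9. Its early G1 calls were short, at 189 and 102 against 695 and 764 bp, and its reads of 53 and 51 against 44 and 20 were not higher in early G1 cells.

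The largest differences towards lower signal that did not pass were also at regions whose called length varied. At chr19:28084303-28086124, with no other call within 300 kb, the signal was 35.5 and 36.4 in unsynchronized cells, against 4.96 and 17.5 in early G1 cells. Calls spanned 375 and 474 against 1222 and 1352 bp, and the 196 and 232 against 49 and 225 reads overlapped between the groups. No base of this region was called in all 4 libraries. The log2 change was -1.82 (SE 0.52, limma adjusted p = 0.16). It was -2.63 without early G1 replicate 2, where it passed (0.0012), and -1.0 without early G1 replicate 1.

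At chr9:122920868-122930726 the signals were 17.6 and 30.7 against 15.7 and 4.12, and early G1 replicate 2 held a call of 255 bp against 7695 to 9823 bp in the others. At chr11:94504885-94515121 they were 19.7 and 31.5 against 10.5 and 12.2. This region held 1899 and 2669 against 454 and 424 reads, on 6548 and 6286 against 5320 and 3641 bp. Early G1 libraries were the lower ones in both regions, and neither passed (limma adjusted p = 0.287 and 0.295).

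Among the isolated regions, the change in signal was described by class, without a test. The median log2 change was 0.49, 0.46 and 0.48 for regions 300 to 500 kb, 500 kb to 1 Mb and over 1 Mb from the nearer neighbour. For spans under 1 kb, of 1 to 5 kb and over 5 kb it was 0.48, 0.49 and 0.37. For the 71 regions with no other call within 300 kb the median was 0.65, with 65 above 0 (91.5%, against 78.0% of all shared regions) and groups apart upward in 47 (66.2%, against 43.9%). After median scaling, their median was 0.20, with 44 above 0 and groups apart upward in 20 (28.2%, against 19.5% of all shared regions). For the 264 with 1 to 4 and the 208 with 5 or more merged regions nearby, it was 0.47 and 0.46. The median lay above 0 on each of the 19 chromosomes, from 0.23 on chromosome 11 to 0.65 on chromosome 2. The replicate SD of log2 signal had a median of 0.37 over the isolated and 0.39 over all shared regions.

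The last comparison asked whether the called length of isolated regions differed between the groups. It showed no common shift, with a median log2 change of 0.0062 over the isolated and of -0.0047 over all shared regions. In limma, 0 of the 543 isolated regions passed as longer and 0 as shorter, and 0% of all shared regions passed in either direction. At an unadjusted p under 0.05, 21 were longer (3.87%, background 3.92%) and 16 shorter (2.95%, background 3.7%). Both early G1 calls were longer than both unsynchronized calls in 98 isolated regions (18%, background 17.9%) and shorter in 89 (16.4%, background 18.6%). Of the 266 regions with higher early G1 signal in all pairs of libraries, 47 had longer calls, 47 shorter calls and 172 overlapping calls. The same split was not counted over all shared regions, so it is no result about isolated regions.

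**Figure D5:**
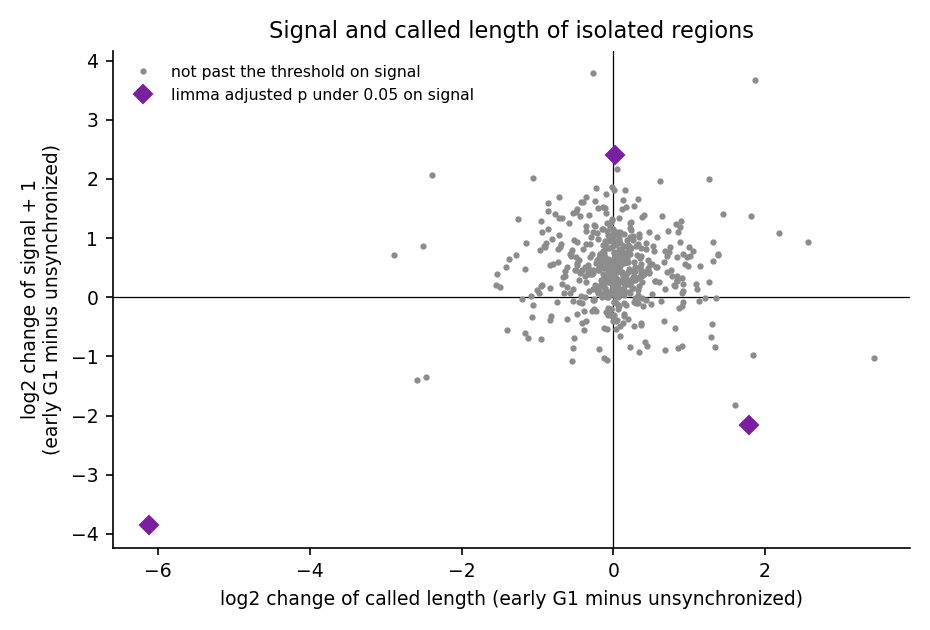
Log2 change of signal + 1 (vertical axis) against log2 change of called length (horizontal axis), both early G1 minus unsynchronized, for the 543 isolated regions. Diamonds mark the 3 regions past the limma threshold on signal; the one with higher signal lies at a length change of 0.02, and those with lower signal at 1.79 and -6.12.

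The largest differences in called length between groups that did not overlap were nonetheless wide. At chr9:3335058-3336724, the first kept region of its chromosome, calls spanned 145 and 112 bp in unsynchronized cells and 1605 and 1175 bp in early G1 cells. Reads were 77 and 97 against 280 and 281, and signal per length was lower in early G1 cells, at 36.2 and 64.3 against 21.3 and 25.1. At chr4:120242130-120242922 calls spanned 113 and 124 against 642 and 768 bp, with signals of 17.8 and 31.2 against 37.2 and 56.2. Here the longer calls went with higher signals in both early G1 libraries.

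At chr17:22497538-22498704 calls spanned 210 and 256 against 1167 and 948 bp, with signals of 34.5 and 14.5 against 42.5 and 55.96. Among regions whose called lengths did not overlap between the groups, the largest differences towards shorter calls were those of the region on chromosome 4 that passed as lower in signal, of chr16:44724622-44746525 and of chr7:46806522-46808273. The last was called over 1626 and 812 against 117 and 205 bp, with 205 and 216 against 19 and 48 reads. None of these 6 length differences passed (limma adjusted p from 0.28 to 0.86).

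As a share of everything called, isolated regions made up 4.08% and 4.46% of the called bases in unsynchronized cells and 4.55% and 4.99% in early G1 cells. This is 4.27 ± 0.270% against 4.77 ± 0.313% (SD, n = 2). They held 4.63% and 4.68% of the summed signal times length against 4.87% and 5.13%, or 4.65 ± 0.041% against 4.996 ± 0.183%. In both measures the early G1 libraries were the higher ones without overlap (exact two-sided permutation p = 0.333 each, the smallest possible). Such a share depends on the whole list of a library, which held 12538 and 11961 regions in unsynchronized cells, against 12768 and 10708. The share of the other kept regions was not computed, and the part of list size was not tested.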

How the data were processed

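GRO-seq region lists of 4 libraries were analysed, 2 per group. Reads were processed with BWA 0.7.12 and HOMER on mm9, per the submitters' processing notes. The method and threshold of region calling are not given in the sources used here. The deposited value of each region is a signal, a geometric mean of both strands by the authors' naming, per the file headers and names. Its square times the squared length was a whole multiple of 1 constant per library (tolerance 0.1, multiples below 5000) in 100% of the regions tested. The members and lists were chosen with earlier results of these data known.

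Regions sharing at least 1 base were merged, and each library was given the mean signal of the calls it had there, weighted by length. Signal was tested as log2(signal + 1) and called length as log2(bp) with limma 3.58.1 in R 4.3.3 (lmFit, eBayes with trend), two-sided, over all 4972 shared regions of all chromosomes. P-values were Benjamini-Hochberg adjusted, with a threshold of 0.05. A fold change on this scale understates low regions. Single values were compared by exact permutation.

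Regions named were the passing ones, up to 10 per direction. Where fewer than 5 passed, the largest changes with groups apart filled up to 5. Added were the 6 most isolated, the 6 of highest signal, the 4 longest, the 3 just inside and outside the distance, the 3 largest length changes in each direction with groups apart and the 3 most isolated without another call. Alternatives are given in the closing section. Gene identities and sequences need an mm9 annotation and genome, not used here.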

Additional observations from a re-analysis of the deposited data

How the results depend on the processing

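The counts of 1 higher and 2 lower isolated regions were small and moved with most settings. The higher count was 3 with a pseudocount of 10, 6 without the lowest 25% of regions by mean signal (which drops the regions on chromosomes 3 and 4 that had passed from the fit), and 0 after median scaling, as signal times length, as unscaled reads, without the limma trend, with the replicate block and with merging within 1 kb. The lower count was 1 with a pseudocount of 0.1, without the trend, without the lowest 25% and at a distance of 500 kb, and 0 after median scaling, as signal times length, as unscaled reads, with the block and with merging within 1 kb. With a library left out in turn, the higher count ran from 1 to 15 and the lower from 0 to 5. The lone library of a group is then assumed to vary like the other group. Whether same-numbered libraries share more than a number is not given by the labels. The deviations of these libraries correlated at 0.10 over the shared regions, and all 3 calls were lost with the number as a block.

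The median log2 signal change of 0.48 was 0.037 after median scaling and -0.15 as unscaled reads, and 0.31 to 0.63 with a library left out. The number of isolated regions was 313 at 500 kb, and those without another call numbered 117 at 200 kb and 35 at 500 kb. The difference in other calls ran from -0.40 to 0.14 with a library left out, being 0.070 without unsynchronized replicate 1 and 0.14 without early G1 replicate 2. Called length divided by the library median gave 1 shorter region (chr4:118098101-118109040, limma adjusted p = 0.040).

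Named regions that had not passed changed sign as follows. As unscaled reads, log2 changes were -1.79 at chr10:29049901-29081898, -0.15 at chr12:92826907-92828494, -2.28 at chr16:44724622-44746525, -0.51 at chr16:64873277-64873788, -0.79 at chr18:21833593-21834360, -0.28 at chr2:146838406-146838775, -0.23 at chr7:105963891-105964382, -0.026 at chr7:66483382-66483972, -0.30 at chr8:42324880-42325602, 1.69 at chr9:3335058-3336724, -2.77 at chr7:46806522-46808273, -0.62 at chr15:38531388-38532211, -0.081 at chr3:154259597-154260150, -0.10 at chr4:66488700-66489736 and -0.49 at chr8:63374259-63396575. After median scaling they were -0.041 at chr10:29049901-29081898, -0.29 at chr16:64873277-64873788, -0.21 at chr2:146838406-146838775, -0.0027 at chr7:105963891-105964382, -0.18 at chr8:54597065-54598477, -0.29 at chr15:38531388-38532211 and -0.40 at chr8:63374259-63396575. As signal times length they were -1.12 at chr10:29049901-29081898, 0.19 at chr14:87815752-87817476, -1.60 at chr16:44724622-44746525, 2.37 at chr9:3335058-3336724, -2.12 at chr7:46806522-46808273 and -0.13 at chr18:21833593-21834360. With a library left out, they ran from -0.74 to 0.57 at chr14:87815752-87817476, from -0.14 to 0.49 at chr16:64873277-64873788, from -0.54 to 1.05 at chr8:54597065-54598477, from -0.24 to 0.54 at chr15:38531388-38532211, from -0.62 to 0.22 at chr9:40262811-40263630 and from -0.42 to 0.50 at chr8:63374259-63396575. The causes were not tested. The effect of depth on calling was not tested.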
